A study of Mus musculus with 6 samples.

Results

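Among leukocytes sorted from mouse tumours, 331 Eomes-negative cells with features of group 1 innate lymphoid cells (ILC1) were set apart, out of 46891 kept cell barcodes. Membership was decided on raw UMIs (unique molecular identifiers, each standing for 1 captured RNA molecule) in barcodes that held 500 UMIs or more from 200 genes or more, with no more than 10% of them mitochondrial. A member had at least 2 UMIs of the NK receptor genes Ncr1 and Klrb1c together and 0 UMIs of the CD3 genes Cd3e and Cd3d and of the macrophage receptor gene Csf1r. It also had 0 UMIs of Eomes, a transcription factor gene of NK cells, and at least 2 UMIs of Il7r, Cxcr6 and Tmem176b together. The conditions on NK receptor, CD3 and Csf1r genes left 6755 barcodes, and of these the 331 were members. Their comparator was the 4237 barcodes of the same 6755 with at least 1 Eomes UMI, called NK cells here whatever their Il7r, Cxcr6 and Tmem176b counts. A further 2187 Eomes-negative barcodes lay below the threshold of 2 and entered neither population.

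Tumours grew in female C57BL/6J mice, 10 to 12 weeks old per the labels, from a breast cancer brain metastasis line placed in the brain (BrM, 3 libraries) or in the mammary fat pad (MFP, 3 libraries). Cells positive for the leukocyte marker CD45 and the nuclear dye RedDot1 and negative for the dead-cell dye DAPI were sorted, and 16000 were loaded per library on the 10x Genomics 3' version 3 system. CD11b was stained but is not part of the stated gate, so the libraries hold leukocytes of all kinds. Whether each library came from its own animal is not stated, so a p-value here measures how these samples spread, and that spread may be technical.

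NK cells and ILC1 are lymphocytes without rearranged antigen receptors. Both carry the receptor NKp46 (Ncr1) and, in C57BL/6 mice, NK1.1 (Klrb1c), depend on the transcription factor T-bet (Tbx21) and can make interferon-gamma. NK cells circulate, express Eomes, perforin and the Ly49 family of receptors for MHC class I, and kill target cells. ILC1 reside in tissues, usually lack Eomes, and are known for the IL-7 receptor, the chemokine receptor CXCR6, the integrin CD49a (Itga1), TRAIL (Tnfsf10) and CD200R (Cd200r1). In tumours, cells between the NK and ILC1 states have been described, and mouse ILC1 at several sites express granzyme C (Gzmc).

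BrM 1 to 3 held 69, 41 and 29 members of 7930, 7685 and 8185 kept barcodes, and MFP 1 to 3 held 92, 67 and 33 of 7982, 8486 and 6623. Total UMIs of the kept barcodes ran from 49951195 to 69873370 per library. The 3 libraries of lower total (BrM 1, MFP 1 and MFP 2) held 1562, 2552 and 1762 of the 6755 barcodes, against 258, 310 and 311 in BrM 2, BrM 3 and MFP 3. UMIs of macrophage, B cell, plasmacytoid or neutrophil genes, or at least 10 UMIs of Cd74, were found in 5.97% to 18.8% of members in the libraries of lower total and in 68.3% to 86.2% in the other 3. Any pair of libraries shared 10 to 39 barcode sequences, and 0 members carried a barcode found in another library.

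The genes that chose the members gave the following levels, which are a description of the rule and no test of it. Levels are UMIs per 1000000 UMIs of the summed cells (CPM), as mean ± SD over the 6 libraries. Ncr1 averaged 414 ± 84.97 CPM in ILC1-like cells and 441 ± 97.5 CPM in NK cells, and Klrb1c averaged 212 ± 68.5 CPM in ILC1-like cells and 395 ± 81.1 CPM in NK cells (n = 6 each). Il7r averaged 165 ± 97.2 CPM in ILC1-like cells and 12.4 ± 9.20 CPM in NK cells, Cxcr6 178 ± 51.6 CPM in ILC1-like cells and 4.18 ± 3.22 CPM in NK cells, and Tmem176b 245 ± 45.4 CPM in ILC1-like cells and 15.9 ± 16.8 CPM in NK cells. Eomes was 0 by the rule in ILC1-like cells and 383 ± 74.2 CPM in NK cells.

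The label was checked against genes the rule did not read. T-bet (Tbx21) was present in both populations, at 106 to 175 CPM per library in ILC1-like cells and 94.2 to 128 CPM in NK cells. Markers of the other helper-like innate cells were partly present. Summed ILC3 and lymphoid tissue inducer markers lay at 37.1 to 76.5 CPM in ILC1-like cells and 11.1 to 18.0 CPM in NK cells, higher in 6 of 6 libraries; of these 10 genes only Kit was high enough to be tested, which was higher (2.45), and Il22, Il17a and Il17f were at 0 in ILC1-like cells. Summed ILC2 markers lay at 91.4 to 227 CPM in ILC1-like cells and 98.2 to 120.4 CPM in NK cells, with 0 of 3 tested genes called and Il1rl1, Il13 and Il5 at 0 in ILC1-like cells. For Il1rl1, 0 of 331 cells allows a share of up to 0.906% of cells with a UMI, counting error only, and does not limit the share of cells that express it. The part of such cells in the results was not tested. T cell transcripts were not absent. UMIs of at least 1 of 8 CD3 gamma or T cell receptor constant genes were in 96.1% of ILC1-like cells and 92.7% of NK cells. UMIs of Trac, Cd4, Cd8b1, Cd5 or Cd28, called alpha-beta T cell genes here, were in 47.1% of ILC1-like cells and 33.6% of NK cells. Among members with Il7r but without Cxcr6 and Tmem176b, Cd28 gave 41 of these UMIs and Trac 5. Among those with Cxcr6 but without Il7r and Tmem176b, Cd28 gave 11 and Trac 5. Trbc2, a beta constant gene, had UMIs in 57.1% of ILC1-like cells, 38.7% of NK cells and 6.77% of B-like cells (38.4%, 23.5% and 4.64% with every cell thinned to 2000 UMIs). Cd3g, which the rule did not read, had UMIs in 12.7% of ILC1-like cells, 7.69% of NK cells and 5.50% of B-like cells, a population that should lack it. Trac, the T cell receptor alpha constant gene, had UMIs in 9.06% of ILC1-like cells, 14.3% of NK cells and 2.43% of B-like cells, and Cd4 in 0.906%, 0.566% and 0.529% of the same populations. Doublet scores from Scrublet placed 36 members (10.9%) among the 7% highest of their library, against 2.03% of NK cells.

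Member cells were deeper than NK cells in every library. Their median was 6043, 7710 and 6477 UMIs in BrM 1 to 3 and 7265, 5989 and 11988 UMIs in MFP 1 to 3, against 5097, 4856 and 3293 UMIs and 5114.5, 5084 and 5277.5 UMIs in NK cells of the same libraries. Shares of cells with a UMI are therefore also given after each cell was thinned to 2000 UMIs, for 331 ILC1-like, 4182 NK and 905 B-like cells that were deep enough. These populations were those of the unthinned counts. Thinned fits and thinned shares of members, given below, applied the rule anew to the thinned counts, so their populations differ. B-like cells, a shallower population at 2690 to 3725.5 median UMIs per library, are given beside them for RNA from other cells. They had to lack UMIs of the NK receptor, CD3 and Csf1r genes. Barcodes that took up such RNA were thereby left out, so the B-like shares may be too low.

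Just inside the threshold lay 94 Eomes-negative cells with a sum of 2 for Il7r, Cxcr6 and Tmem176b, and 237 had 3 or more. Just outside lay 182 cells with a sum of 1, and 2005 had a sum of 0. Across sums of 0, 1, 2 and 3 or more, pooled over libraries, Rora stood at 40.0, 99.1, 144 and 260 CPM and Itgae at 16.9, 79.9, 111 and 175 CPM. Over the same classes Klra4 stood at 653, 317, 71.9 and 21.97 CPM and Prf1 at 500.0, 234, 121 and 74.0 CPM. The pooled level of cells with a sum of 1 was thus intermediate in these 4 genes, and a graded state and a mixture of cells cannot be told apart from such levels.

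The members were not uniform in their granzyme genes. Gzmc and Gzma encode serine proteases of cytotoxic granules. Of the 331 cells, 70 (21.1%) had UMIs of both Gzmc and Gzma, 81 (24.5%) of Gzmc alone, 89 (26.9%) of Gzma alone and 91 (27.5%) of neither. Any UMI placed a cell in a class, and UMIs of Gzma were also in 15.9% of B-like cells, against 0.529% for Gzmc. The part of RNA from other cells in these classes was not tested. Gzmc was found in 13 of 69 cells of BrM 1, 29 of 41 of BrM 2 and 16 of 29 of BrM 3, and in 39 of 92 of MFP 1, 26 of 67 of MFP 2 and 28 of 33 of MFP 3. BrM 1 had the lowest share and MFP 3, the library with the deepest members, the highest, so the sites overlapped. Cells with Gzma alone made up 49.3% of BrM 1 and 0 of 33 cells of MFP 3.

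**Figure D1:**
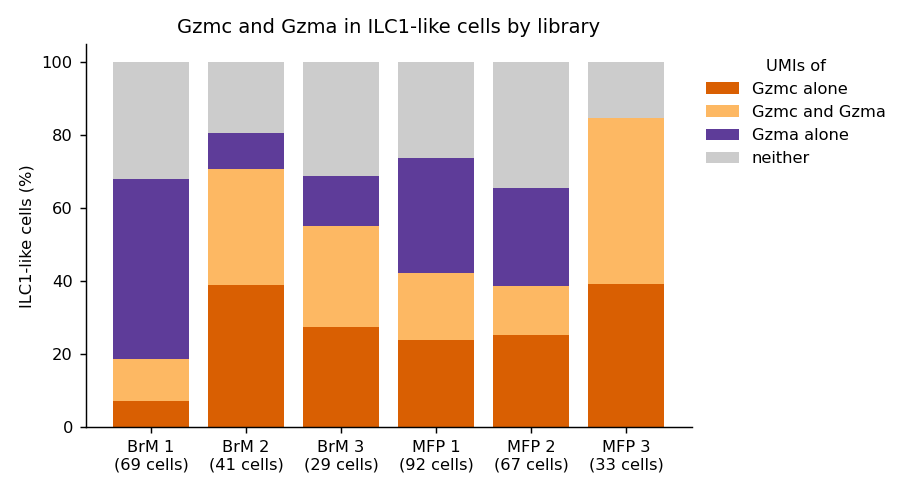
Stacked bars give the percentage of ILC1-like cells in each library with UMIs of Gzmc alone, of Gzmc and Gzma, of Gzma alone or of neither; the number of cells stands under each bar. Gzma alone is the largest class in BrM 1 (49.3%) and is missing in MFP 3 (0 of 33 cells). UMIs of Gzma were also in 15.9% of B-like cells.

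Which gene brought a cell past the threshold went along with its granzymes and transcription factors. Only Il7r did so in 42 cells (12.7%), only Cxcr6 in 31 (9.37%), only Tmem176b in 38 (11.5%) and more than 1 of them in 220 (66.5%). Pooled over libraries, Gzmc stood at 140 CPM in Il7r-only cells, 7846 in Cxcr6-only cells, 4776 in Tmem176b-only cells and 3970 in cells with more than 1 of the genes. Gzmb, granzyme B, followed the same order at the low end, with 271 CPM in Il7r-only cells against 3709 in Cxcr6-only and 3055 in Tmem176b-only cells. The integrin gene Itgae stood at 17.0 CPM in Il7r-only cells and at 166 to 196 CPM in the other 3 classes. Tcf7, the transcription factor TCF-1 of early and memory-like lymphocytes, went the other way, with 97.5 CPM in Il7r-only cells and 11.9 CPM in Cxcr6-only cells. Rora stood at 263 CPM in Il7r-only cells and 71.2 CPM in Cxcr6-only cells. These classes were defined by the rule's own genes and hold few cells from each library, so no test was made. They also draw on different libraries: 15 of the 42 Il7r-only cells came from BrM 1, where Gzmc was lowest, and 0 from MFP 3, where it was highest.

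Cells with and without Il7r differed in Gzmc within libraries, but Il7r is a gene of the rule, so these values describe the members and support nothing further: a member without Il7r must have entered through Cxcr6 or Tmem176b. Gzmc had UMIs in 14.9%, 47.1% and 36.8% of cells with Il7r in BrM 1 to 3, against 27.3%, 87.5% and 90.0% of cells without Il7r. The corresponding shares in MFP 1 to 3 were 32.0%, 20.6% and 63.6% with Il7r and 54.8%, 57.6% and 95.5% without. The level of Gzmc did not follow the share throughout, since in BrM 3 it was 2627 CPM in cells with Il7r and 2349 CPM in cells without, whereas in MFP 3 it was 2817 CPM with and 8483 CPM without. Cells without Il7r were also the deeper ones in each library, for example at a median of 12600.5 against 7463 UMIs in MFP 3, and the part of depth in this difference was not tested.

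Against NK cells, ILC1-like cells showed higher expression of tissue-residency genes, Gzmc, Ikzf2 and Rora, and lower expression of Ly49 receptors, perforin and integrins of circulating NK cells. Counts were summed per library and population and compared by edgeR's quasi-likelihood test with library as a block. Of 6642 genes tested, 1070 (16.1%) passed an adjusted p of 0.05, 507 higher (7.63%) and 563 lower (8.48%) in ILC1-like cells. All values below are log2 fold changes of ILC1-like over NK cells, p-values are Benjamini-Hochberg adjusted over the 6642 genes, and the median over all of them was 0.00027. The cells had been set apart by 9 genes, which were left out, so these calls describe how cells divided on those genes differ; other genes may vary with them. The 12 highest and 12 lowest genes named below were chosen among calls that lay in the same direction in 6 of 6 libraries.

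The highest fold change belonged to Tcrg-C4, a constant-region gene of the T cell receptor gamma locus (chr13:19344558-19352756, GENCODE annotation of GRCm38). It stood at 103, 125 and 107 CPM in ILC1-like cells of BrM 1 to 3 and 114, 104 and 138 CPM in those of MFP 1 to 3, against 2.42, 0 and 2.00 CPM and 1.82, 1.69 and 7.75 CPM in NK cells. The ILC1-like level was alike in all 6 libraries, and the populations did not overlap. The log2 fold change was 5.56 (SE 0.22, edgeR adjusted p = 3.56e-11). UMIs of Tcrg-C4 were found in 49.8% of ILC1-like cells, 0.944% of NK cells and 0.212% of B-like cells (19.3%, 0.335% and 0.110% after thinning). Tcrg-C1, another gamma constant gene, was also higher (4.72), whereas Trdc, the delta constant gene, was lower (-2.29, SE 0.24, edgeR adjusted p = 3.68e-06), at 0 to 22.2 CPM in ILC1-like cells against 39.5 to 71.3 CPM in NK cells. Constant genes of this locus share sequence, and how the authors' counting divided such reads is not given in the sources used here.

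Of 20 genes listed for ILC1 and tissue residency, 18 passed the filter on low counts and 16 of these were higher, 0 lower, with a median of 1.32. Itgae encodes the integrin CD103, which binds E-cadherin (chr11:73090583-73147446). It stood at 29.8, 150 and 75.6 CPM in ILC1-like cells of BrM 1 to 3 and 165, 208 and 321 CPM in those of MFP 1 to 3, against 3.17, 27.5 and 12.0 CPM and 8.78, 8.14 and 42.6 CPM in NK cells. The 2 populations differed in each library, and levels varied within each site (log2 fold change 3.66, SE 0.24, edgeR adjusted p = 1.43e-08). Gpr183, the oxysterol receptor EBI2 that guides lymphocytes within tissue, averaged 170 ± 32.3 CPM in ILC1-like cells and 20.4 ± 9.99 CPM in NK cells (3.24, SE 0.17, edgeR adjusted p = 1.28e-09). Cd200r1 was at 22.2 to 43.3 CPM in ILC1-like cells and at most 1.303 CPM in NK cells (4.99). Tnfsf10, which encodes the death ligand TRAIL, was higher by 1.51 and Itga1, which encodes CD49a, by 0.86. Xcl1, a chemokine that attracts dendritic cells, averaged 3378 ± 665 CPM in ILC1-like cells and 1664 ± 893 CPM in NK cells (1.13, SE 0.16, edgeR adjusted p = 9.32e-05), though in BrM 3 it was 3074 CPM in ILC1-like cells and 3160 CPM in NK cells. The 2 genes that did not pass were Ldlrad4 (0.37, edgeR adjusted p = 0.181) and Tox (0.38, edgeR adjusted p = 0.0863), and the residency gene Zfp683 was too low to be tested.

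**Figure D2:**
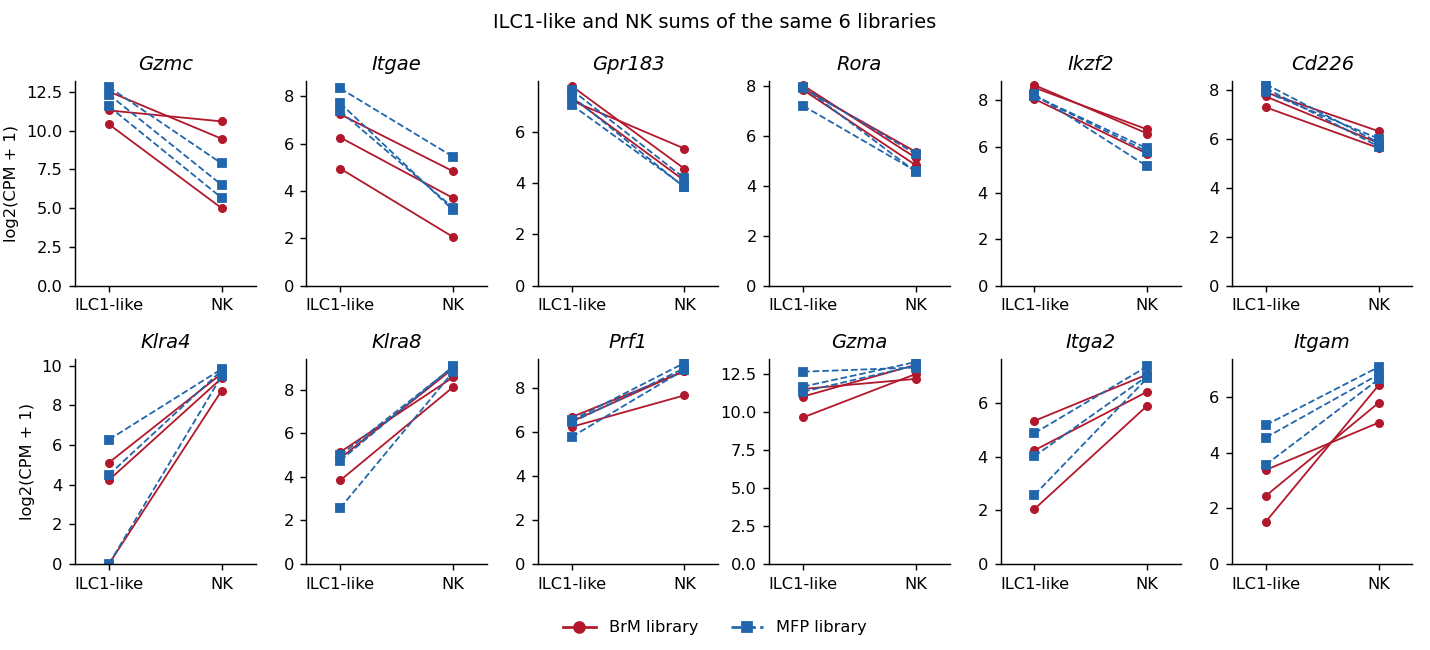
Each line joins the ILC1-like (left) and NK (right) sums of 1 library for 12 genes, as log2(CPM + 1); circles with solid lines are BrM libraries, squares with dashed lines MFP libraries. Gzmc, Itgae, Gpr183, Rora, Ikzf2 and Cd226 lie higher in ILC1-like cells in each library, and Klra4, Klra8, Prf1, Gzma, Itga2 and Itgam lie lower.

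Ly49 receptors, lectin-like receptors of NK cells that mostly read MHC class I, were mostly lower. Of 12 listed genes 7 were tested, and 6 were lower and 1 higher, with a median of -3.91. Klra4, which encodes the activating receptor Ly49D, stood at 33.6, 0 and 17.8 CPM in ILC1-like cells of BrM 1 to 3 and 76.2, 21.6 and 0 CPM in those of MFP 1 to 3, against 777, 428 and 662 CPM and 913, 869 and 714 CPM in NK cells. The highest ILC1-like sum lay well below the lowest NK sum, and in 2 libraries no member had a UMI (-4.73, SE 0.27, edgeR adjusted p = 2.81e-09). UMIs of Klra4 were found in 4.53% of ILC1-like cells, 56.5% of NK cells and 1.27% of B-like cells (3.63%, 50.05% and 0.884% after thinning). Klra8, which encodes the activating receptor Ly49H, fell by 4.32 (SE 0.17, edgeR adjusted p = 3.56e-11), and Klra7 by 3.91, Klra9 by 2.99 and Klra3 by 2.21. Klra1, which encodes the inhibitory receptor Ly49A, stood at 13.1 CPM in ILC1-like cells of BrM 1 and at 0 in the other 5 libraries, against 92.0 to 174 CPM in NK cells. Klra5 was the exception. It stood at 76.5, 175 and 17.8 CPM in ILC1-like cells of BrM 1 to 3 and 73.7, 15.1 and 116 CPM in those of MFP 1 to 3, against 6.89, 32.7 and 18.0 CPM and 8.38, 3.23 and 4.84 CPM in NK cells. In BrM 3 the populations were alike, and in the other 5 libraries Klra5 was higher in ILC1-like cells (2.94, SE 0.28, edgeR adjusted p = 1.16e-06).

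The genes lie side by side on chromosome 6 and are near copies, so reads can be hard to assign among them, and their treatment by the authors is not given in the sources used here. Promoter windows of the lower genes Klra4 and Klra8 and of the higher gene Klra5 are shown to let their start regions be compared. They are RefSeq sequences of GRCm38.p6, from 250 bases before to 50 bases after the gene start, all on the minus strand (chr6:130067222-130067521, chr6:130129849-130130148 and chr6:129913175-129913474 in the order shown). For Klra5 the RefSeq gene start lies inside the gene as GENCODE gives it (chr6:129898996-129917650), so its window is not at the GENCODE start. Capitals mark an 18-base run that all 3 share.
Klra4: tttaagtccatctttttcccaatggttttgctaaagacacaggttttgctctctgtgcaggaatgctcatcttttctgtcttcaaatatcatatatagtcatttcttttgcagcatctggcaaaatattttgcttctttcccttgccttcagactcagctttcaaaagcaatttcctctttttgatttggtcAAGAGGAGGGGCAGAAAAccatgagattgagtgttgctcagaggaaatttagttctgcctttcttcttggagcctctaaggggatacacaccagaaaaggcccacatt
Klra8: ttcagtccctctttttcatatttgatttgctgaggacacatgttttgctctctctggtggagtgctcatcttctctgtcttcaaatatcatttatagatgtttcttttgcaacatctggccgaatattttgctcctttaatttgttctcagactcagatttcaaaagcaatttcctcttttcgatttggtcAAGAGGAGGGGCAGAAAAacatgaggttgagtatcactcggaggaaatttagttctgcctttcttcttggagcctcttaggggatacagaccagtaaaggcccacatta
Klra5: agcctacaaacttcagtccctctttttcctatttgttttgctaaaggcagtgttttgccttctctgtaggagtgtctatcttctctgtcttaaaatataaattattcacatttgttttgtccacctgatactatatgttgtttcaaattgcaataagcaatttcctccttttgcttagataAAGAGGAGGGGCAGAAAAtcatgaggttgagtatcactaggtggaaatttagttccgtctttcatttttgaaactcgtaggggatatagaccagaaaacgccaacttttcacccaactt
The windows of Klra4 and Klra8 were identical at 86.6% of aligned positions, those of Klra8 and Klra5 at 75.8%, and those of Klra4 and Klra5 at 72.5%. The shared run AAGAGGAGGGGCAGAAAA, searched on both strands, was found in 5 of 32851 RefSeq promoter windows (0.0152%), and among the 9 windows of the 7 tested Ly49 genes in those of Klra4, Klra5 and Klra8, from which it was taken. The letters TCACACC, a core of sites bound by T-box factors such as T-bet and Eomes (GGTGTGA on the other strand; the run does not overlap them), were in 1307 of all windows (3.98%) and, among the Ly49 windows, in that of Klra1. A match describes letters and does not show a bound site.

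Genes of mature, circulating NK cells were mostly lower. Of 20 listed genes 19 were tested, with 13 lower, 2 higher and a median of -0.998. Itga2, which encodes CD49b (DX5), stood at 39.2, 3.12 and 17.8 CPM in ILC1-like cells of BrM 1 to 3 and 28.3, 15.1 and 4.94 CPM in those of MFP 1 to 3, against 132, 58.5 and 84.2 CPM and 163, 126 and 120 CPM in NK cells. The ILC1-like sum was the lower one in each library (-2.64, SE 0.22, edgeR adjusted p = 1.64e-07). Itgam, which encodes CD11b, fell by 2.69, and the terminal maturation factors Zeb2 and Prdm1 by 1.47 and 2.25. Cma1, a mast cell protease gene also known in mouse NK cells, fell by 4.50, at 0 to 7.37 CPM in ILC1-like cells and 6.88 to 91.1 CPM in NK cells. Ccl5 was lower (-0.998, SE 0.15, edgeR adjusted p = 0.000164), but its level in BrM 1 was 8935 CPM in ILC1-like cells and 8362 CPM in NK cells. The 2 that were higher were Cd7 (1.86) and the adhesion gene Emb (0.79). S1pr1, the receptor for exit from tissue, did not pass (-0.30, SE 0.25, edgeR adjusted p = 0.448), while S1pr5 did (-3.91, edgeR adjusted p = 0.000328) with 3 UMIs in all ILC1-like cells together.

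Cytotoxic granule genes divided. Of 18 listed genes 15 were tested, with 6 lower, 1 higher and a median of -0.11. The higher gene was Gzmc (chr14:56231441-56234656), at 1354, 5837 and 2518 CPM in ILC1-like cells of BrM 1 to 3 and 5116, 3011 and 7141 CPM in those of MFP 1 to 3, against 30.9, 710 and 1542 CPM and 89.4, 49.6 and 234 CPM in NK cells. The difference was present in each library and smallest in BrM 3 (4.42, SE 0.55, edgeR adjusted p = 2.27e-05). UMIs of Gzmc were found in 45.6% of ILC1-like cells, 6.96% of NK cells and 0.529% of B-like cells (38.4%, 3.75% and 0.221% after thinning). Single cells weighed on some sums: 1 NK cell gave 65.9% of the Gzmc UMIs of NK cells in BrM 2, and 1 ILC1-like cell 42.1% of those in BrM 1. Prf1, which encodes the pore-forming protein perforin, averaged 83.3 ± 16.7 CPM in ILC1-like cells and 435 ± 123 CPM in NK cells (-2.43, SE 0.14, edgeR adjusted p = 2.40e-09). Gzma averaged 3065 ± 1922 CPM in ILC1-like cells and 7738 ± 2048 CPM in NK cells (-1.55, SE 0.23, edgeR adjusted p = 0.000134), and its UMIs were in 48.0% of ILC1-like cells against 97.6% of NK cells and 15.9% of B-like cells. Gzmk had 1 UMI in all ILC1-like cells together and 10.7 to 28.1 CPM in NK cells. Gzmb did not pass (0.44, SE 0.17, edgeR adjusted p = 0.0916). With all cells thinned to 2000 UMIs and the rule applied anew to the thinned counts, Gzmb was lower (-1.56, edgeR adjusted p = 6.78e-12). That fit held 2 libraries, with 21 members in MFP 1 and 20 in MFP 2, and its populations differ from those of the main fit. Gzmb and Gzmc lie in 1 cluster of similar genes, among which reads can be hard to assign. The death ligand gene Fasl was lower by a smaller amount (-0.66).

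Other NK receptors did not move together: of 16 tested, 9 were higher and 3 lower, with a median of 0.37. Cd226, which encodes the activating receptor DNAM-1, averaged 237 ± 49.8 CPM in ILC1-like cells and 59.3 ± 11.04 CPM in NK cells (2.02, SE 0.12, edgeR adjusted p = 5.37e-09). Klrc1, which encodes the inhibitory receptor NKG2A, was higher by 1.25, and the checkpoint receptor genes Lag3 and Pdcd1 by 3.20 and 3.47. Klre1 and Klri2, lectin-like receptors of NK cells, fell by 1.18 and 1.73. The activating receptor gene Klrk1 (NKG2D) did not pass, at 499 ± 138 CPM in ILC1-like cells and 511 ± 52.8 CPM in NK cells (-0.07, SE 0.10, edgeR adjusted p = 0.658).

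Among transcription factor genes 19 were tested, with 6 higher, 2 lower and a median of 0.03. Rora, a nuclear receptor gene needed by several innate lymphoid lineages, stood at 241, 231 and 262 CPM in ILC1-like cells of BrM 1 to 3 and 252, 244 and 148 CPM in those of MFP 1 to 3, against 40.4, 27.5 and 34.1 CPM and 22.7, 38.3 and 23.2 CPM in NK cells. The populations were well separated in each library (2.87, SE 0.13, edgeR adjusted p = 2.06e-10). Ikzf2, which encodes Helios, averaged 323 ± 54.3 CPM in ILC1-like cells and 66.8 ± 27.6 CPM in NK cells (2.39, SE 0.14, edgeR adjusted p = 2.81e-09). Hopx, which marks ILC1 and long-lived T cells, was higher by 1.13, the aryl hydrocarbon receptor gene Ahr by 1.04, Maf by 0.64 and Ikzf3 by 0.54. Nfil3 and Id2, both needed for innate lymphoid development, fell by 0.63 and 0.44. Tbx21 (0.32, SE 0.12, edgeR adjusted p = 0.0747), Tcf7 (-0.27) and Gata3 (-0.22) did not pass. Myb, a factor gene of immature and dividing cells that is outside this list, was among the 12 lowest, at 0 to 26.7 CPM in ILC1-like cells against 73.9 to 139 CPM in NK cells (-3.45, SE 0.30, edgeR adjusted p = 2.81e-07).

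Cytokine genes gave few calls: of 10 tested, Ifng (0.43, SE 0.14, edgeR adjusted p = 0.0450) and Tnfsf11 (2.92, SE 0.55, edgeR adjusted p = 0.00144) were higher and Ccl4 (-0.84) and Tgfb1 (-0.37) lower. The Ifng call did not pass in DESeq2 (0.44, adjusted p = 0.0826) or without BrM 1, BrM 2, BrM 3 or MFP 2 (edgeR adjusted p = 0.141, 0.064, 0.0772 and 0.246). Tnfsf11, which encodes RANKL, was at 5.60 to 43.7 CPM in ILC1-like cells and 0 to 8.02 CPM in NK cells. Among cytokine receptors, 6 of 14 were higher and 3 lower. Kit, the stem cell factor receptor gene, averaged 55.3 ± 12.1 CPM in ILC1-like cells and 11.3 ± 2.81 CPM in NK cells (2.45, SE 0.21, edgeR adjusted p = 2.66e-07). The costimulatory receptor genes Tnfrsf9 and Tnfrsf18 were higher by 0.72 and 0.75. Il2rb, the receptor chain for IL-2 and IL-15, did not pass, at 991 ± 182 CPM in ILC1-like cells and 973 ± 152 CPM in NK cells (-0.02, SE 0.07, edgeR adjusted p = 0.868).

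Of 12 chemokine receptor and integrin genes 6 were lower, 1 was higher and 5 did not pass, with a median of -0.34. The lower ones were Itga4 (-1.48), Cxcr4 (-1.01), Itgb1 (-0.89), Ccr2 (-0.86), Itgal (-0.36) and the selectin ligand gene Selplg (-0.32), and the higher one was Itgav (0.94). Genes known to respond to TGF-beta gave 2 higher (Ctla4 and Nedd9) and 5 lower of 12, with a median of -0.34. Immediate-early genes gave 0 higher and 6 lower of 17, with a median of -0.06; Nr4a2 fell most among them, by 1.31 (SE 0.09, edgeR adjusted p = 1.87e-08). Genes of the interferon response gave 4 higher and 0 lower of 22 (median 0.27), and those of glycolysis and hypoxia 4 higher and 1 lower of 15 (median 0.15), among them Hk2 (1.25), which encodes hexokinase 2.

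Proliferation genes were higher in 13 of 20 and lower in 0, with a median of 0.77. Mki67, which encodes Ki-67, averaged 118 ± 94.0 CPM in ILC1-like cells and 57.6 ± 53.8 CPM in NK cells (1.00, SE 0.18, edgeR adjusted p = 0.00103), and its UMIs were in 34 of 331 ILC1-like cells (10.3%), 154 of 4237 NK cells (3.63%) and 2.01% of B-like cells. Summed over the 20 genes, the level was higher in ILC1-like cells in 5 of 6 libraries, the exception being MFP 2 at 1276 CPM in ILC1-like cells and 1365 CPM in NK cells. Members are deeper cells. With both populations limited to cells of 4000 to 15000 UMIs, which left out BrM 3, the call did not pass for Mki67 (0.80, edgeR adjusted p = 0.211), Rrm2, Tyms, Mcm3, Mcm5 or Pclaf. Without library as a block Mki67 did not pass either (1.19, edgeR adjusted p = 0.224). Single members gave 38 of its 44 UMIs in BrM 1 and 27 of 42 in MFP 3, and at most 47.5% in the other libraries.

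Of the remaining genes with the largest differences, S100a4, a calcium-binding protein gene of motile and tissue cells, stood at 791, 947 and 917 CPM in ILC1-like cells of BrM 1 to 3 and 1244, 1514 and 1989 CPM in those of MFP 1 to 3, against 68.7, 208 and 90.2 CPM and 130, 155 and 250 CPM in NK cells. It was separated in each library (3.08, SE 0.13, edgeR adjusted p = 3.56e-11). Krt83, a hair keratin gene, was at 49.4 to 154 CPM in ILC1-like cells and 0 to 10.7 CPM in NK cells (4.70, SE 0.27). Its UMIs were in 35.95% of ILC1-like cells, 1.65% of NK cells and 0.635% of B-like cells. Sema6d (4.19), the Tmem176b neighbour Tmem176a (4.16), Ifitm2 (3.41, a near copy of Ifitm3), Klk8 (3.06) and Gpr34 (2.95) completed the 12 highest. Serpinb9b (-3.24) was the other of the 12 lowest not named above.

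**Figure D3:**
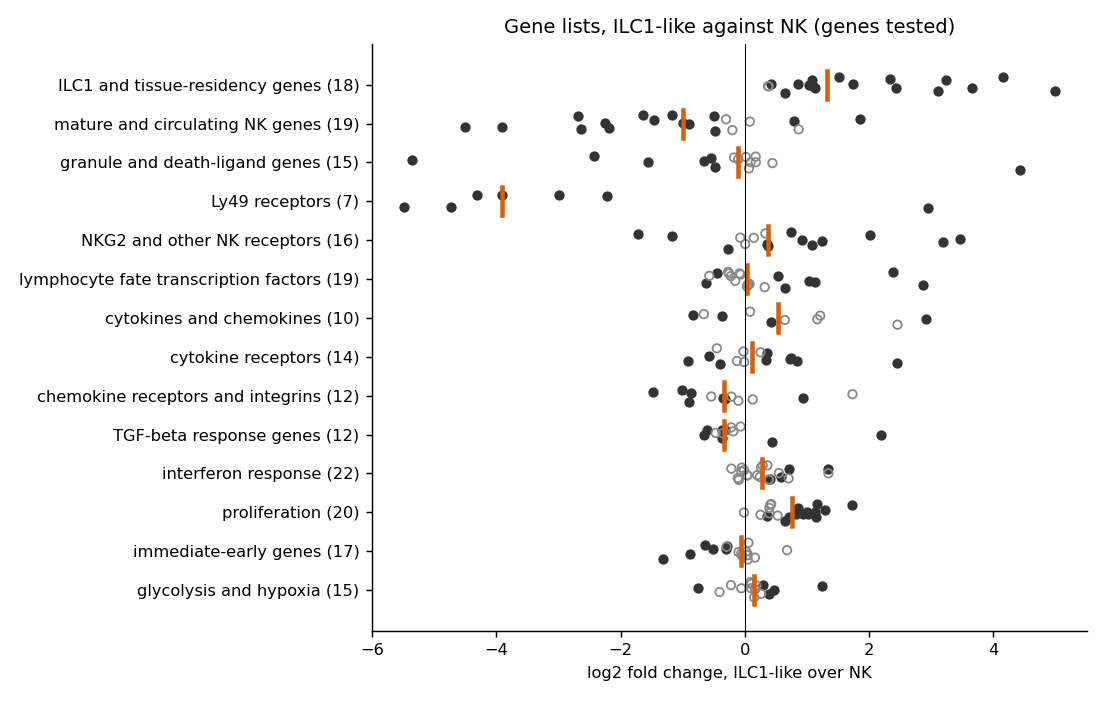
Each point is the log2 fold change of ILC1-like over NK cells for 1 tested gene of a list, filled where the edgeR adjusted p is under 0.05; orange bars are list medians and the number of tested genes stands in brackets. The Ly49 list has its median at -3.91 with 1 gene above 0, and the ILC1 and tissue-residency list has all 18 points above 0, with a median of 1.32.

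Markers of other cell types moved with the population in part. Summed T cell markers lay at 1016 to 1331 CPM in ILC1-like cells and 728 to 901 CPM in NK cells; of 9 tested, Tcrg-C1, Cd3g (1.63), Icos and Trbc2 were higher and Trdc and Trac lower. Summed dendritic cell markers lay at 424 to 2936 CPM in ILC1-like cells and 258 to 1348 CPM in NK cells, with H2-Aa (1.28), Cd74 (1.48) and Bst2 (0.41) higher of 7 tested, while 5 of the 12 were too low to test. Of 6 tumour epithelial markers 2 were tested, Epcam (1.74) and Cdh1 (1.81), and both were higher, and Krt19 and Cldn4 were at 0 in ILC1-like cells. Macrophage markers (474 to 890 CPM in ILC1-like cells, 368 to 986 CPM in NK cells) gave 0 higher and 1 lower of 10. Summed B cell markers lay at 131 to 229 CPM in ILC1-like cells and 112 to 142 CPM in NK cells, and summed neutrophil markers at 0 to 64.2 CPM in ILC1-like cells and 0.372 to 331 CPM in NK cells, where both tested genes, S100a8 and S100a9, were lower in ILC1-like cells. Their part in the results was not tested. An alternative left out barcodes that carried macrophage, B cell, plasmacytoid or neutrophil UMIs or at least 10 Cd74 UMIs. There 903 genes passed, among them 691 of the 1070, from BrM 1, MFP 1 and MFP 2 only, as the other libraries kept fewer than 20 members. With barcodes carrying alpha-beta T cell UMIs left out 685 passed, without BrM 3 for the same reason.

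The share of ILC1-like cells did not separate BrM from MFP. Of the barcodes that met the NK receptor, CD3 and Csf1r conditions, members made up 4.42% (95% exact binomial interval 3.45 to 5.56), 15.9% (11.7 to 20.9) and 9.35% (6.35 to 13.2) in BrM 1 to 3. In MFP 1 to 3 they made up 3.61% (2.92 to 4.40), 3.803% (2.96 to 4.80) and 10.6% (7.42 to 14.6). Libraries of lower total had shares of 3.61% to 4.42% and the other 3 shares of 9.35% to 15.9%. With each cell thinned to 2000 UMIs and the rule applied anew, this held in BrM but not in MFP. MFP 1 to 3 then had 1.39%, 1.99% and 1.37%. As a share of all kept barcodes it ran the other way, with 0.790% to 1.15% in the libraries of lower total and 0.354% to 0.534% in the other 3. The means were 9.89% ± 5.76 in BrM and 6.01% ± 3.99 in MFP (SD, n = 3 each), a difference of 3.88 percentage points (exact two-sided permutation p = 0.5; with 3 against 3 the smallest possible is 0.1). Among libraries of lower total the share was 4.42% in BrM and a mean of 3.70% in MFP; among the other 3 it was a mean of 12.6% in BrM and 10.6% in MFP. After thinning it was 3.12% ± 1.61 in BrM and 1.58% ± 0.352 in MFP (exact permutation p = 0.2). Without BrM 2 the difference fell to 0.880 percentage points, and without BrM 1 it was 6.62. As a share of all kept barcodes the means lay the other way round, at 0.586% ± 0.262 in BrM and 0.813% ± 0.328 in MFP.

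**Figure D4:**
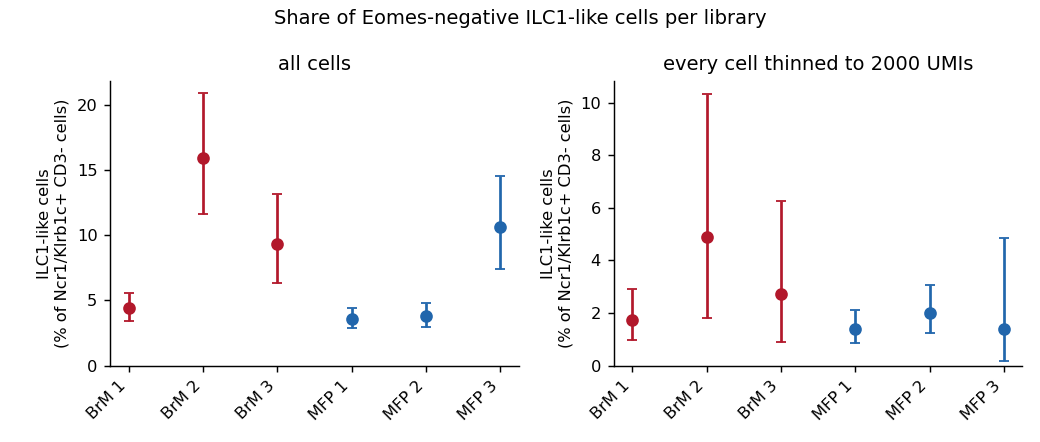
Percentage of ILC1-like cells among barcodes with at least 2 UMIs of Ncr1 and Klrb1c together and without CD3 and Csf1r UMIs, per library. Left, all cells. Right, each cell thinned to 2000 UMIs, with the rule applied to the thinned counts. Points are libraries, bars are 95% exact binomial intervals, BrM red and MFP blue. BrM 1, MFP 1 and MFP 2 lie between 3.61% and 4.42% on the left, and MFP 3 (10.6%) lies between BrM 3 and BrM 2.

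Within ILC1-like cells, 2 of 5061 genes (0.0395%) differed between the sites by edgeR, both higher in BrM, and 401 had an unadjusted p under 0.05. Values in this and the next paragraphs are log2 fold changes of BrM over MFP, with a median of 0.0018 over all genes. Hist1h1b, a linker histone gene transcribed in S phase (chr13:21779883-21780625), stood at 142, 231 and 89.0 CPM in BrM 1 to 3 and 24.6, 19.5 and 37.1 CPM in MFP 1 to 3. Every BrM library lay above every MFP library (2.56, SE 0.36, edgeR adjusted p = 0.0332). The UMIs came from few cells (5, 8 and 6 for BrM 1 to 3; 7, 4 and 4 for MFP 1 to 3), and 1 cell gave 53 of the 76 UMIs of BrM 1. The call did not pass without the cells of highest doublet score (1.98, adjusted p = 0.663), with a threshold of 3 (2.00, adjusted p = 0.122), without MFP 1 (2.45, adjusted p = 0.182) or without MFP 2 (2.39, edgeR adjusted p = 0.354).

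Ifitm3, an interferon-inducible gene that restricts virus entry (chr7:141009586-141010770), stood at 371, 209 and 294 CPM in BrM 1 to 3 and 88.5, 56.2 and 119 CPM in MFP 1 to 3. The sites did not overlap (1.75, SE 0.27, edgeR adjusted p = 0.0470). Its UMIs were in 22, 17 and 15 cells of BrM 1 to 3 and in 21, 9 and 11 cells of MFP 1 to 3. Leaving out the barcodes with UMIs of other cell types gave 0.74, from BrM 1, MFP 1 and MFP 2 only. BrM 2, BrM 3 and MFP 3 then kept 13, 4 and 6 members, under the 20 needed for a sum. Leaving out the highest doublet scores gave 1.24 (edgeR adjusted p = 0.317). The call also did not pass without BrM 3, MFP 1 or MFP 2 (edgeR adjusted p = 0.311, 0.259 and 0.354). It did not pass with a threshold of 3 (adjusted p = 0.0901) or at 5% mitochondrial UMIs (0.101), both by edgeR. Nor did it pass with cells of 4000 to 15000 UMIs (1.04, edgeR adjusted p = 0.745) or without alpha-beta T cell UMIs (edgeR adjusted p = 0.377). BrM 3 was missing from these last fits, with 16 and 14 members left. Cd74, a marker of antigen-presenting cells, stood beside it at 1229, 344 and 979 CPM in BrM and 281, 160 and 566 CPM in MFP, with 320 of the 659 UMIs of BrM 1 in 1 cell.

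In NK cells of the same libraries, Ifitm3 stood at 35.7, 179 and 130 CPM in BrM 1 to 3 and 32.2, 32.0 and 55.2 CPM in MFP 1 to 3, and Hist1h1b at 32.4, 144 and 34.1 CPM in BrM and 53.6, 42.9 and 47.4 CPM in MFP. BrM 1 was low for Ifitm3 and BrM 2 alone was high for Hist1h1b. Neither passed in NK cells (1.48 and 0.37), where edgeR called 0 of 9440 genes; 509 had an unadjusted p under 0.05, and DESeq2 called 14. The difference of the site effect between ILC1-like and NK cells, tested in 1 model, was called for 0 of 6642 genes (361 at an unadjusted p under 0.05, 1 called by DESeq2). For Hist1h1b it was 2.32 (edgeR adjusted p = 0.0639) and for Ifitm3 0.59 (edgeR adjusted p = 0.991).

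Genes that lay in the same order in all libraries but did not pass were, above in BrM, Hist1h2ae (2.11), the tubulin gene Tuba1b (1.35) and Ifi30 (1.83), and below in BrM, Fosb (-0.98), S100a4 (-0.84), Ldlrad4 (-1.10), Neurl3 (-0.73) and Tle3 (-1.40). Such order was seen for 341 genes above (6.74%) and 353 below (6.97%) among the 5061. Of the 18 tested proliferation genes all were above 0, with a median of 1.43, and 0 passed, 13 being at an unadjusted p under 0.05. With library kind as a term 6 passed, and without the filter on low counts 13 of 20 did. DESeq2 called 1, and without alpha-beta T cell UMIs 2 of 15 passed. With doublet scores removed 0 passed, 7 being at an unadjusted p under 0.05 by edgeR. Also 0 passed with a threshold of 3, at 5% mitochondrial UMIs or with cells of 4000 to 15000 UMIs. Top2a, the S and G2 phase topoisomerase gene, stood at 110, 297 and 191 CPM in BrM 1 to 3 and 30.7, 21.6 and 109 CPM in MFP 1 to 3 (1.96, SE 0.49, edgeR adjusted p = 0.376). In BrM 1, 1 cell gave 32 of its 59 UMIs, and in the other libraries the top cell gave at most 38.6%. Summed over the list the level was 2155, 5087 and 4244 CPM in BrM 1 to 3 and 1460, 1276 and 2402 CPM in MFP 1 to 3, so BrM 1 lay below MFP 3. Taking only BrM 1, MFP 1 and MFP 2 the median was 0.657, and taking only BrM 2, BrM 3 and MFP 3 it was 1.03. The median was 0.867 without BrM 2, 1.16 without BrM 3, 0.989 without MFP 1 and 1.07 without MFP 2, with 0 genes passing in each. Without BrM 1 the median was 1.82 and 10 of the genes passed, and without MFP 3 it was 1.92 and 5 passed. NK cells had a median of 0.891 on 20 of 20 genes above 0, which was -0.133 without BrM 2 and 1.84 without BrM 1.

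**Figure D5:**
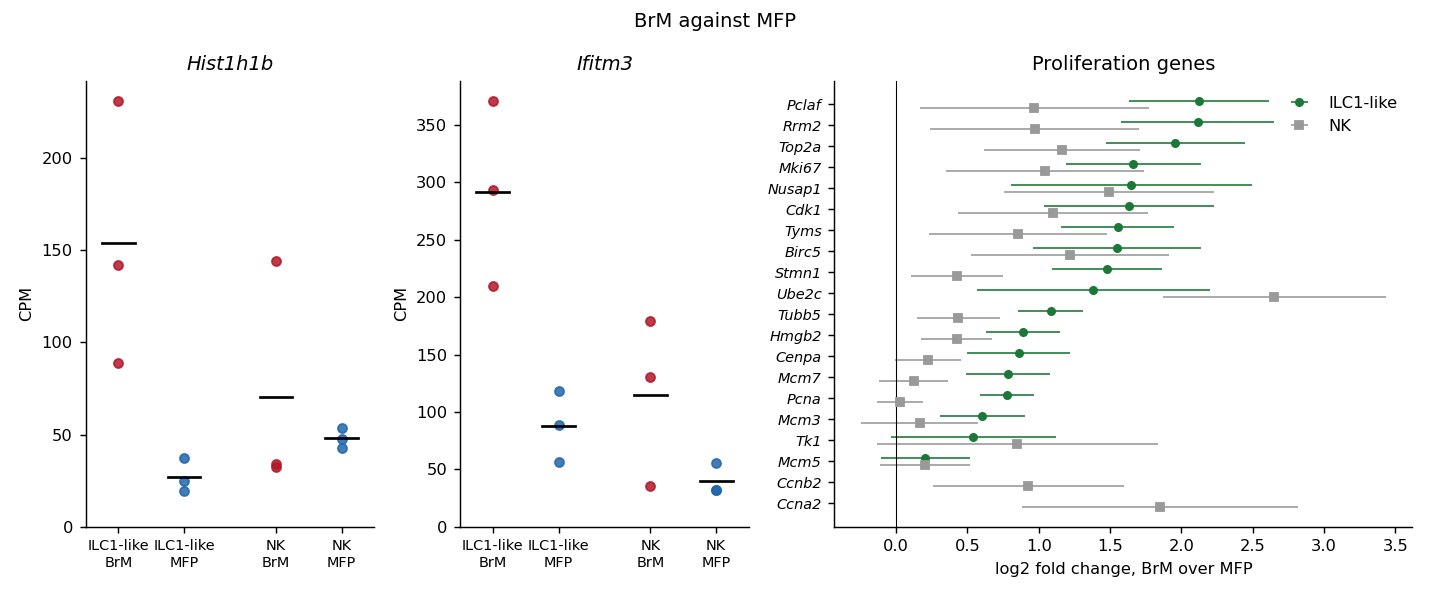
Left and centre, CPM of Hist1h1b and Ifitm3 in ILC1-like and NK sums of each library, BrM red and MFP blue, with bars at the means of 3 libraries. Right, log2 fold change of BrM over MFP with its SE for the proliferation genes in ILC1-like (green circles) and NK cells (grey squares); all 18 green points lie above 0, and 0 of them passed the adjusted threshold.

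Residency genes were not called between the sites in either direction: 14 of 18 lay below 0 in BrM, with a median of -0.20. In NK cells 11 of 16 lay above 0 and 0 were called, with a median of 0.137, which was -0.119 without BrM 2. For the difference of site effects 1 of 18 lay above 0 and 0 were called, with a median of -0.613, which was -0.304 without BrM 2. In ILC1-like cells Itgae had the values given above, at 29.8 to 150 CPM in BrM and 165 to 321 CPM in MFP. These do not overlap, but the difference did not pass (-1.50, SE 0.42, edgeR adjusted p = 0.469). Itga1, Cd69, Rgs1 and Ldlrad4 also lay lower in each BrM library than in each MFP library. That made 5 of the 18 genes below and 0 above, against 353 below (6.97%) and 341 above (6.74%) among all 5061. The list was chosen with earlier results of these data known, and this count was not tested. Gzmc was at 1354 to 5837 CPM in BrM and 3011 to 7141 CPM in MFP (-0.65, SE 0.41, edgeR adjusted p = 0.736), and Tcrg-C4, Rora and Ikzf2 differed by -0.09, 0.17 and 0.21, none of which passed.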

How the data were processed

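Per the submitters' processing notes, the authors made UMI counts with Cell Ranger 4.0 on the mouse build mm10; the annotation release was not found in those notes. The deposited count matrices hold raw, unnormalized UMI counts per gene and barcode for 6 libraries (3 BrM, 3 MFP), 49518 barcodes in all. Groups came from the sample labels.

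Filters, the membership rule and depths are in the report. Counts of members and NK cells were summed per library where at least 20 cells were present and tested with edgeR 4.0.16 (R 4.3.3), quasi-likelihood, TMM scaling, filterByExpr, Benjamini-Hochberg at 0.05, over all genes tested. DESeq2 1.42.0 was an alternative. Scrublet in scanpy 1.11.5 (Python 3.11.15) scored doublets; members of high score were kept in the main analysis and removed in an alternative. Shares were compared by exact permutation (scipy 1.17.1). The scripts were tested on simulated data. B-like cells had at least 3 UMIs of Cd79a and Ms4a1, and 0 of the NK receptor, CD3 and Csf1r genes.

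The members and gene lists were chosen with earlier results of these data known. Named genes were the 12 largest changes each way among calls in the same direction in every library at 50 CPM or more in the higher population and without Gm, Rik, mitochondrial or ribosomal protein names, list members, and for the sites the calls and the 5 smallest p-values each way among non-overlapping genes. UMIs collapse PCR copies; intervals cover counting error only. Some genes are not reported here.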

Additional observations from a re-analysis of the deposited data

How the results depend on the processing

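Of the 1070 genes that passed between ILC1-like and NK cells, 0 passed in the opposite direction under any alternative run. The count was 571 with cells of 4000 to 15000 UMIs, 685 without alpha-beta T cell UMIs, 569 without the replicate block and 79 after thinning to 2000 UMIs, which left 2 libraries; without 1 library each it ran from 644 (without MFP 1) to 1117. DESeq2 shared 69.5% of the calls. In that thinned fit, from 2 libraries only, the call or its absence held in 60 of the genes followed by name. A further 46 kept their sign but no longer passed. The sign turned in 9, which were Il21r (-0.41), Itga1 (-0.60), Gzmb (-1.56), Ikzf3 (-0.072), Tnfrsf9 (-0.23), Il10ra (0.27), Egr1 (0.50), Gapdh (-0.058) and Trac (0.098). A gene without a main call was counted there only if it passed the other way after thinning, as Gzmb did.

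The count of 2 genes between the sites in ILC1-like cells was 8 in DESeq2, 98 without a filter on low counts, 0 with doublet scores removed, with a threshold of 3 or with cells of 4000 to 15000 UMIs, 1 at 5% mitochondrial UMIs, 13 without UMIs of other cell types, 4 without alpha-beta T cell UMIs, 38 with library kind as a term, 90 among libraries of lower total and 50 among the other 3. It ran from 0 (without MFP 1 or MFP 2) to 33 (without BrM 1) when 1 library was left out, with 4 without BrM 2, 1 without BrM 3 and 16 without MFP 3. In NK cells the count of 0 became 14 in DESeq2, 111 without a filter, 1 after thinning, 1 with cells of 4000 to 15000 UMIs, 4 without UMIs of other cell types, 110 among libraries of lower total and 53 among the other 3, and 0 to 410 with 1 library left out (410 without BrM 1). For the difference of site effects the count of 0 became 1 in DESeq2, 29 without a filter, 1 with a threshold of 3, 1 at 5% mitochondrial UMIs, 2 with cells of 4000 to 15000 UMIs, 26 without UMIs of other cell types, 2 without alpha-beta T cell UMIs, 5 against NK cells with none of the 3 genes and 2 against Eomes-negative cells below the threshold, and 0 to 13 with 1 library left out (13 without BrM 1, 12 without BrM 2). The alternatives on cells of 4000 to 15000 UMIs and on UMIs of other cell types or alpha-beta T cells were chosen after seeing the data. In fits with members, the alternative on other cell types held only BrM 1, MFP 1 and MFP 2, so 1 BrM library. The alternatives on 4000 to 15000 UMIs and on alpha-beta T cells then lacked BrM 3. The missing libraries kept fewer than 20 members. The cause was not tested. As a share of members plus NK cells the site difference was 10.387 percentage points, and leaving out 1 library moved the main difference between 0.880 and 6.617.

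Replicate numbers are shared between the sites. In deviations from the site means, same-numbered sums correlated at 0.18, -0.15 and 0.11 in members and at 0.34, -0.098 and 0.14 in NK cells. Pairs with different numbers ran from -0.33 to 0.24 in members and from -0.33 to 0.22 in NK cells. Deviations from a mean of 3 libraries are tied to each other, so these values cannot decide whether same-numbered libraries belong together. With a replicate block 20 genes were called between the sites in ILC1-like cells, among them 4 proliferation genes, and 1 in NK cells. The fits without any T cell receptor UMIs between the populations, between the sites in members and of the difference of site effects, and the thinned fit between the sites in members, were not run because fewer than 3 sums had 20 cells. The thinned fit of the difference of site effects had no residual degrees of freedom.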

Other observations

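The 79 Eomes-positive cells with at least 2 UMIs of Il7r, Cxcr6 and Tmem176b, which were counted among the NK cells, lay between members and the other NK cells in several genes. Pooled over libraries, Rora stood at 181 CPM in them, 232 in members and 25.8 in NK cells with none of the 3 genes, and Ikzf2 at 174, 311 and 43.2 CPM in the same order. Klra4 stood at 285 CPM in the 79 cells, 34.0 in members and 869 in NK cells with none of the 3 genes. For Gzmc they lay far below members, at 316 CPM against 4202 in members and 106 in NK cells with none of the 3 genes. Doublet scores were among the highest of the library in 12.7% of the 79 cells, against 2.03% of NK cells. Alpha-beta T cell UMIs were in 49.4% and 33.6%. Median depth per library was 5975 to 13177 UMIs in the 79 cells and 3293 to 5277.5 UMIs in NK cells. The part of doublets and depth in these levels was not tested. These classes were cut by the rule's genes, pool few cells per library and were not tested.

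The 2187 Eomes-negative cells below the threshold lay nearer to NK cells than to members, with 620 CPM of Klra4, 474 of Prf1 and 45.8 of Rora. Shares without Eomes were taken among all cells that met the shared conditions, pooled over libraries. They were 33.6%, 48.0%, 77.0% and 82.3% at sums of 0, 1, 2 and 3 or more for Il7r, Cxcr6 and Tmem176b. At a sum of 0 the share ran from 29.7% in MFP 1 to 60.3% in BrM 2. With conditions and sums taken from counts thinned to 2000 UMIs, the pooled share was 57.8%, 75.7%, 90.5% and 88.2%. Sums of 2 and of 3 or more then held 42 and 34 cells. Eomes and the summed genes are all genes of the rule, so these shares describe it and were not tested.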
